A study of Homo sapiens with 4 samples.

Results

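The sites described here are those that the authors' annotation placed first in a 3′ untranslated region (3′ UTR) of a transcript, in 2 lists of sites from RNA recovered with PARP1 in HK-2 cells. PARP1 is a nuclear enzyme that builds ADP-ribose chains at DNA breaks and also binds RNA, and HK-2 is an immortalised line from human kidney proximal tubule. Each list came from 1 immunoprecipitation (IP) with a Flag antibody (IP 1 and IP 2). Every row whose region label began with three_prime_UTR was taken, whatever its mutation type, which gave 5062 of 166248 sites in IP 1 (3.04%) and 5937 of 229782 in IP 2 (2.58%), or 10999 of 396030 together. A site is 1 base on 1 strand, and the list gives the tags sequenced over it and how many of them are mutated there, by a substitution, a deletion or an insertion. The series has 4 samples, 2 PARP1 IPs and 2 inputs, all from HK-2 cells with no treatment, genotype or transgene named in the labels. The inputs were not analysed here. No control IP is labelled and no crosslinking step is described, and separate cultures for the 2 IPs are not stated. Binding to PARP1 therefore cannot be told apart from presence in the cells' RNA, and the spread between the IPs may be technical. No conditions could be compared, so no test was made, and the 95% exact (Clopper-Pearson) intervals given below cover counting error only. Where tags are PCR products without molecular identifiers they are not independent molecules.

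The 3′ UTR follows the stop codon and ends at the poly(A) tail. It carries sites for microRNA-loaded Argonaute proteins, for proteins that bind AU-rich elements and for PUF proteins, and these set how long a messenger RNA lasts, where it goes and how often it is translated. Cleavage and polyadenylation at an AAUAAA-type signal fixes its end, and many genes use several ends.

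Sequences are shown first for the sites with the most mutated tags in both IPs, since these are the recurring bases with the most tags behind them. They are reference sequences from the GENCODE 29 transcripts (GRCh38), 5′ to 3′ on the transcript strand and written with T for U, 29 bases long with the listed base in capitals at base 15.
MICOS10-NBL1: cttccaaggccagaAggagggggacaacc
H2AX: agcctgccggggggAggccggcggcgccg
GFRA1: ttgaaaaaaaaaaaAcagtttcagaaacc
NCLN: ggtctgatgtcatcAttgacagcctttgc
GPR107: gactttgacttgatGcctcttggtatatc
PDXK: agcacaggggaggaTacctgagcctgtat
UBALD1: atggagtggttcagCgcggcctgggtgcc
CAMTA2: gggaggtggtgtacAtaggaacgcgttgc
HM13: tcagactctaggttGccctgaagatcaag
STK35: tctttcagccttctGtcacccccctcaac

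A further pair of sequences marks the recurring sites with the most tags over them after GFRA1, and in both the listed base ends a run of A, as it does in GFRA1.
CPM: tcttaaaaaaaaaaAttggtgctgataaa
MCAM: aaatacaaaaaaaaAttagctaggcgtag

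The last set shows single-base deletions at a U inside a run of exactly 3 U, the most frequent deletion in these 3′ UTRs. The capitals mark the run of 3. These sites were chosen after that pattern was seen, as the deepest of the 8 with the most mutated tags, and none of them recurred.
ITGA3: ccagaacggcttgcTTTcctgcatctctg
HSPA5: tgctcacatgtcTTTgggtgggggggaga
TMBIM6: cttctggtggatgcTTTgctccctctgag
TGFBI: accaagtatcacacTTTaatgtacatggg

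By the smaller of the 2 numbers of mutated tags, MICOS10-NBL1 and H2AX tied for the first place, with 7. The MICOS10-NBL1 base was a substitution at chr1:19657853-19657853 on the plus strand. It had 7 of 12 tags mutated in IP 1 and 8 of 12 in IP 2. The authors assigned it to MICOS10-NBL1, a read-through gene, and in GENCODE 29 it lies in the 3′ UTR of NBL1, which encodes a secreted antagonist of bone morphogenetic proteins, 723 bases into a 3′ UTR of 1327. Tags from the read-through and from NBL1 cannot be told apart at this base.

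H2AX encodes the histone variant that is phosphorylated around DNA breaks. Its only listed 3′ UTR site, chr11:119094628-119094628 on the minus strand, was a substitution with 13 of 13 tags mutated in IP 1 and 7 of 7 in IP 2, so no unmutated tag was counted there in either list. The base follows a run of G and the window is 10.3% A and T.

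The GFRA1 site, in the message of a receptor for the neurotrophic factor GDNF, differed from these in that most tags over it were unmutated. It is the last base of a run of 12 A at chr10:116057735-116057735 on the minus strand, and a deletion was carried by 6 of 31 tags in IP 1 and by 6 of 25 in IP 2. IP 1 also listed an insertion at the same base, with 4 of 31 tags. It was the only deletion among the 10 strongest.

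The other 7 of the 10 were substitutions with between 6 and 11 tags. NCLN, which encodes an endoplasmic reticulum membrane protein, had 6 of 11 and 6 of 8 tags mutated in IP 1 and IP 2 (chr19:3208352-3208352, plus strand). GPR107, a Golgi membrane protein, had 6 of 7 and 7 of 8 (chr9:130139228-130139228, plus strand). PDXK, the kinase that activates vitamin B6, had 6 of 6 and 8 of 9 (chr21:43760051-43760051, plus strand). In these 3 genes the mutated tags made up 54.5% to 100% of the tags in IP 1 and 75% to 88.9% in IP 2.

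UBALD1 had 7 of 7 and 6 of 6 tags mutated, at the C of a CG (chr16:4609407-4609407, minus strand). CAMTA2, a calmodulin-binding transcription activator, had 9 of 9 and 5 of 7 (chr17:4968223-4968223, minus strand). HM13, the signal peptide peptidase, had 5 of 7 and 7 of 9 (chr20:31569949-31569949, plus strand), and STK35, a nuclear serine/threonine kinase, had 5 of 9 and 5 of 7 (chr20:2145534-2145534, plus strand). All 10 sites had an FDR of 0 in both lists, FDR being the authors' false discovery rate for the site.

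**Figure D1:**
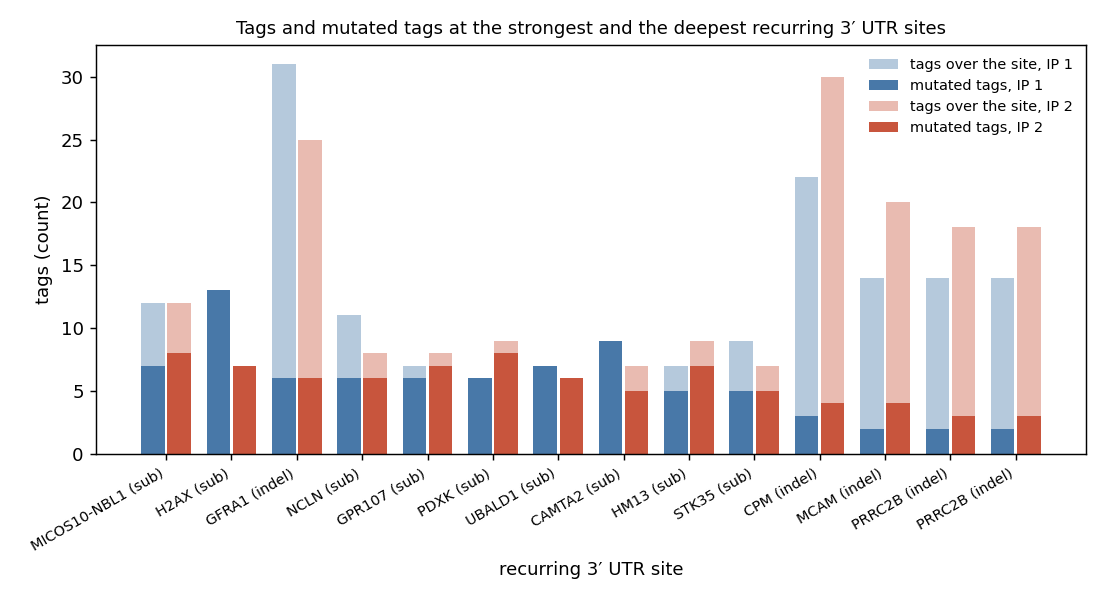
Tags over each site (pale bars, count) and mutated tags (dark bars) in IP 1 (blue) and IP 2 (red) at the 10 recurring 3′ UTR sites with the most mutated tags and at the 5 with the most tags, which share GFRA1. Substitutions (sub) have most of their tags mutated, and the deletion and insertion sites (indel) of GFRA1, CPM, MCAM and PRRC2B have 13.3% to 24% of them mutated.

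The 5 deepest recurring sites were all deletions or insertions. CPM, which encodes carboxypeptidase M, had an insertion in 3 of 22 tags in IP 1, and in IP 2 the same base had a deletion in 4 of 30 tags and an insertion in 3 of 30 (chr12:68854864-68854864, minus strand, a run of 11 A). MCAM, a cell adhesion molecule, had a deletion in 2 of 14 and 4 of 20 tags (chr11:119309139-119309139, minus strand, a run of 9 A). PRRC2B had 2 adjacent deleted bases outside any run, at chr9:131497307-131497308 on the plus strand, with 2 of 14 and 3 of 18 tags. They are counted as 2 of the 5 sites and read as 1 deletion. These few sites apart, recurring bases were shallow: 8 of the 320 recurring bases had 10 or more tags in both lists.

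Several genes owed their rank by recurring bases to 1 deletion listed base by base. CCDC88A, which encodes the actin-binding protein girdin, had 6 recurring bases, all adjacent, with 2 of 2 tags in IP 1 and 8 of 9 in IP 2. DSTYK and CTSS (cathepsin S) each had 3 adjacent deleted bases with 2 of 2 tags in both IPs, and PTPRG, a receptor tyrosine phosphatase, had 3 with 2 of 4 tags in both. These are therefore 4 deletions rather than 15 independent bases.

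In other genes the recurring bases were not all adjacent, though several lay close together with equal tag counts. MGAT5B, a glycosyltransferase gene, had 3 substitutions, with 3 of 3, 3 of 3 and 2 of 2 tags in IP 1 and 2 of 2, 2 of 2 and 4 of 4 in IP 2. The first 2 of them were at chr17:76949073-76949073 and chr17:76949075-76949075. CLSTN2, a calsyntenin, had a substitution with 4 of 6 and 5 of 8 tags and 2 adjacent deleted bases with 2 of 2 and 2 of 4. PPIA, which encodes cyclophilin A, had 2 adjacent deleted bases with 4 of 5 and 4 of 6 tags and a substitution 12 bases upstream with 4 of 5 and 3 of 5. PPIA has many processed pseudogenes, and how tags that map to several places were assigned is not given in the sources used here. RCL1 had 3 recurring bases within chr9:4860918-4860980, all with 2 of 2 tags in both lists. METTL22 had 2, at chr16:8648292-8648292 and chr16:8648313-8648313, each with 3 of 3 tags in IP 1 and 2 of 2 in IP 2. GJC1 (connexin 45) had 2, at chr17:44799888-44799888 and chr17:44802807-44802807. Whether the same tags cover nearby bases with equal counts is not given by the lists.

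In all, 322 of the 5062 sites of IP 1 (6.36%, interval 5.70 to 7.07) were listed at the same base and strand in IP 2, and 323 of the 5937 sites of IP 2 (5.44%, 4.88 to 6.05) were listed in IP 1. Among all sites the shares were 4.17% and 3.02%. They were higher in 5′ UTRs, at 9.51% and 8.94%, and in noncoding exons, at 8.97% and 7.47%. In coding sequence they were 5.70% and 5.22%. The shared 3′ UTR sites fell on 320 bases in 266 genes, and every one of those bases was also labelled 3′ UTR in the other list. Recurrence in the 2 lists therefore counts largely the same bases from each side, here and below. Like shares in both lists are not separate observations of it. Of 325 pairs of rows at these bases, 313 had the same mutation type in both lists, 237 of them substitutions, 53 deletions and 23 insertions. The smaller of the 2 numbers of mutated tags was 2, the least that the lists hold, at 234 of the 320 bases, and 4 or more at 41. At 197 bases every tag was mutated in both lists. Whether such a base differs between the genome of HK-2 and the reference was not tested. Across the 320 bases, with 1 pair of rows kept for each, the 2 tag counts were correlated with rho = 0.419 (Spearman) and r = 0.671 (Pearson). The 2 counts of mutated tags were correlated with rho = 0.290 and r = 0.290. These are descriptions across sites, which share libraries and genes.

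Substitutions recurred more often than deletions in 3′ UTRs. Of 2581 substitutions in IP 1, 9.22% (interval 8.13 to 10.4) recurred, and of 2896 in IP 2, 8.18% (7.21 to 9.24), beside 4.81% and 3.43% of all substitutions. Substitutions in 5′ UTRs recurred at 8.95% and 9.37%, in noncoding exons at 9.80% and 8.33% and in coding sequence at 8.20% and 7.74%. This level is therefore not particular to 3′ UTRs. Deletions recurred at 2.73% (2.07 to 3.52) of 2091 and 2.23% (1.70 to 2.88) of 2599, beside 1.98% and 1.48% of all deletions. Insertions recurred at 6.92% and 6.33%, beside 4.42% and 3.4%.

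The higher recurrence of 3′ UTR than of intronic substitutions was also seen when sites with the same number of mutated tags were set side by side. With 2 mutated tags, 6.25% (interval 5.20 to 7.43) of 3′ UTR substitutions in IP 1 and 5.33% (4.41 to 6.38) in IP 2 recurred, against 4.80% (4.63 to 4.97) and 3.81% (3.68 to 3.95) in introns. With 4 or more mutated tags the shares were 19.6% (15.8 to 24.0) and 16.6% (13.3 to 20.3) in 3′ UTRs, against 13.1% (12.1 to 14.2) and 10.7% (9.95 to 11.5) in introns. For these numbers of mutated tags the intervals of 3′ UTRs and introns did not overlap in either list, though the lists share their recurring bases. With 3 mutated tags the shares were 14.9% (11.1 to 19.5) and 14.5% (10.9 to 18.8), against 11.6% (10.7 to 12.7) and 9.66% (8.89 to 10.5), and the intervals overlapped in IP 1. Coding substitutions recurred at 5.59% and 4.69% with 2 mutated tags, at 9.87% (6.29 to 14.6) and 11.6% (7.78 to 16.4) with 3, and at 21.9% and 21.0% with 4 or more, with intervals that overlapped those of the 3′ UTRs. With 3 mutated tags the coding share of IP 1 lay below that of introns, and the intervals of coding sequence and introns overlapped in both lists. Over all sites depth differed between these classes, as given below. Substitutions with 2 mutated tags all had exactly 2 tags, so depth did not differ in that comparison. Those with 3 to 9 tags recurred at 17.97% (14.98 to 21.28) and 16.3% (13.7 to 19.3) in 3′ UTRs. In introns they recurred at 12.4% (11.7 to 13.1) and 10.2% (9.66 to 10.8). With 10 or more tags the intervals of 3′ UTRs and introns overlapped in both lists. The part of depth was not tested further.

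**Figure D2:**
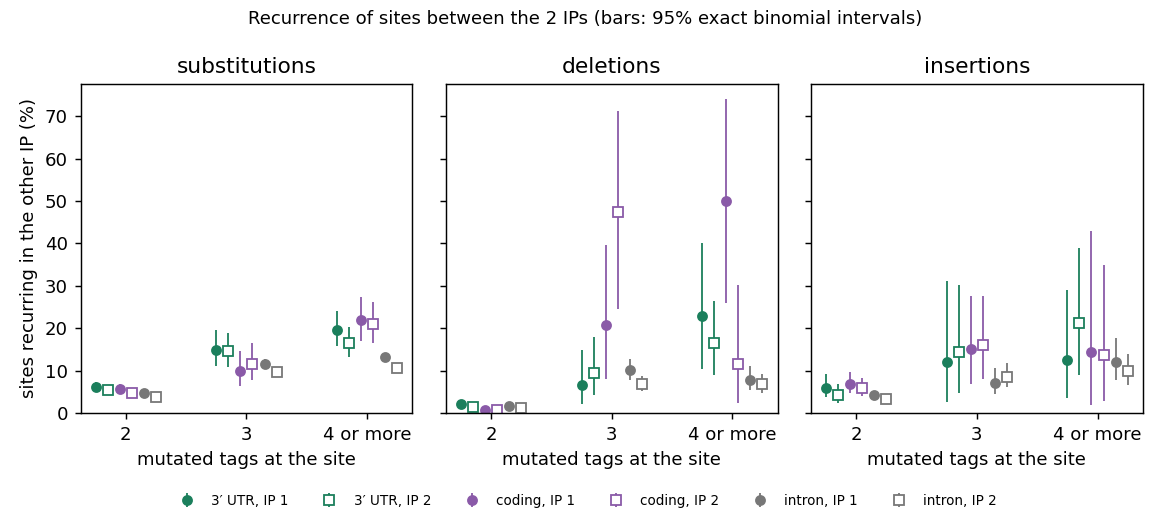
Share of sites (%) listed at the same base and strand in the other IP, by mutated tags at the site, for substitutions, deletions and insertions in 3′ UTRs (green), coding sequence (purple) and introns (grey), IP 1 filled and IP 2 open, with 95% exact intervals. Substitutions in 3′ UTRs with 4 or more mutated tags sit at 19.6% and 16.6%, above introns at 13.1% and 10.7%.

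Deletions were more frequent in 3′ UTRs than in the lists at large. They made up 41.3% (interval 39.9 to 42.7) of 3′ UTR sites in IP 1 and 43.8% (42.5 to 45.0) in IP 2, against 21.8% and 21.0% of all sites and 23.9% and 24.4% of intronic sites. Coding sequence was near the 3′ UTRs, at 37.4% and 38.5%. Substitutions made up 51.0% and 48.8% of 3′ UTR sites and insertions the other 390 and 442 sites. Because a deletion of several bases is listed once for each base, 54.7% and 55.0% of the deleted bases belonged to deletions of more than 1 base. Counted as events (adjacent bases of 1 type with equal tags), deletions were 1426 and 1765, or 32.8% and 35.0% of 3′ UTR events, against 28.8% and 29.7% in coding sequence. Most of these deletions, 945 and 1164, removed a single base, and the longest removed 10. With 4 or more mutated tags required, deletions made up 35 of 449 3′ UTR sites in IP 1 (7.80%, interval 5.49 to 10.7) and 79 of 577 in IP 2 (13.7%, 11 to 16.8). At that threshold they were 531 of 6609 among all sites of IP 1. In introns they were 367 of 4776 in IP 1 and 564 of 6712 in IP 2. The excess of deletions in 3′ UTRs was therefore not seen in IP 1 at this threshold.

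**Figure D3:**
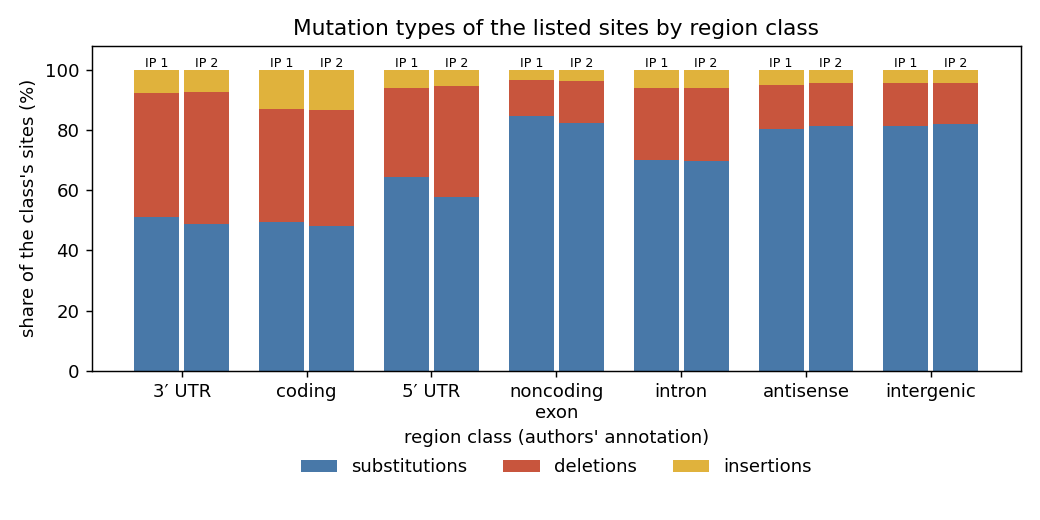
Share (%) of substitutions (blue), deletions (red) and insertions (yellow) among the listed sites of each region class, with IP 1 and IP 2 as adjacent bars. In 3′ UTRs deletions make up 41.3% and 43.8% of sites, against 23.9% and 24.4% in introns.

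The single-base deletions were concentrated at U. In IP 1, 638 of 945 (67.5%, interval 64.4 to 70.5) and in IP 2, 800 of 1164 (68.7%, 66.0 to 71.4) removed a U, while U made up 30.5% and 30.3% of the bases of the same genes' 3′ UTRs. Runs of exactly 3 U held 319 (33.8%, 30.7 to 36.9) and 417 (35.8%, 33.1 to 38.7) of the deletions, against 4.53% and 4.50% of the bases, a ratio of 7.45 and 7.97. Runs of 4 U followed, with 14.6% and 13.5% of deletions against 2.50% and 2.46% of bases. Runs of 5 or more U held 11.6% and 12.3% of deletions against 2.43% and 2.33% of bases. A U in a run of 2 was deleted less often than its share of bases, at 2.65% and 2.66% of deletions against 7.46% and 7.43%.

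The pattern did not extend to runs of 3 A or to substitutions. Runs of exactly 3 A held 2.33% and 1.20% of single-base deletions, against 3.90% and 3.87% of bases. Runs of 5 or more A held 9.52% and 8.08%, against 1.71% and 1.72% of bases. Substitutions at a U in a run of 3 were 2.47% and 2.37% of substitutions, against 4.20% and 4.30% of bases. Coding sequence showed the same feature, with 38.8% and 40.0% of its single-base deletions in runs of 3 U that held 2.47% and 2.46% of its bases. It is therefore not particular to 3′ UTRs.

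**Figure D4:**
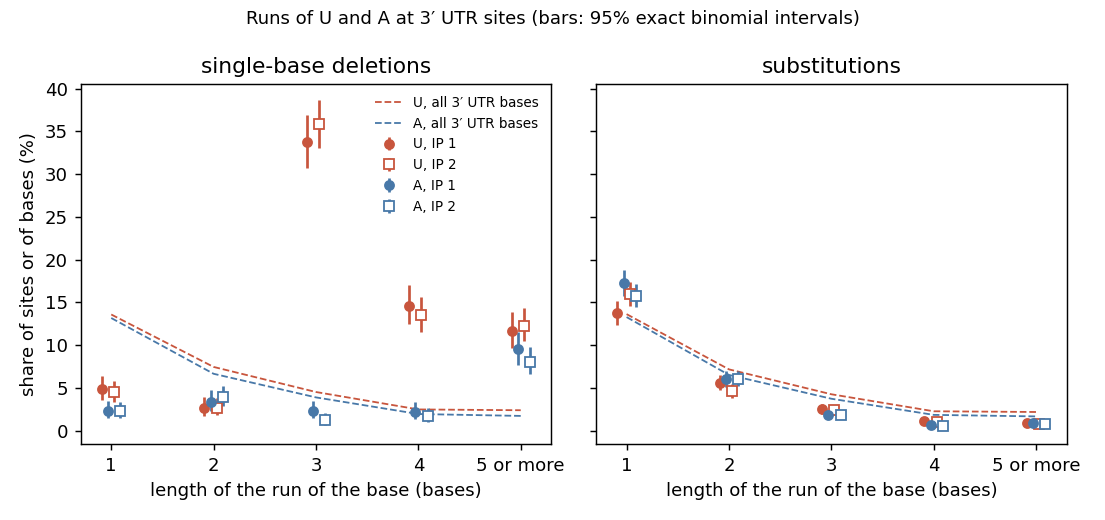
Share (%) of single-base deletions (left) and of substitutions (right) in 3′ UTRs that lie at a U (red) or an A (blue), by the length of the run of that base, IP 1 filled and IP 2 open, with 95% exact intervals. Dashed lines give the share of all bases of the same genes' 3′ UTRs, averaged over the IPs, and runs of 3 U hold 33.8% and 35.8% of deletions against 4.53% and 4.50% of bases.

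Deletions in runs of 3 U rested on few mutated tags among more tags, and they seldom recurred. Their median was 5 tags in IP 1 and 4 in IP 2, with a median of 40% and 50% of tags mutated. Exactly 2 mutated tags were found at 97.8% and 96.4% of them. Single-base deletions of all kinds were similar, with a median of 5 and 4 tags, 50% of tags mutated, and 94.7% and 94.1% with exactly 2 mutated tags. For the deletions in runs of 3 U, the same base was listed in the other IP for 2 of 319 (0.627%, interval 0.0760 to 2.25) and 2 of 417 (0.480%, 0.0581 to 1.72). Deletions in runs of 5 or more U also seldom recurred, at 0 of 110 and 1 of 143, and all single-base deletions recurred at 2.65% and 2.49%. Deletions in runs of 5 or more A recurred far more often, at 13 of 90 (14.4%, 7.92 to 23.4) and 13 of 94 (13.8%, 7.57 to 22.5). Among single-base deletions with 3 or more mutated tags, 7 of 50 in IP 1 (14%, interval 5.82 to 26.7) and 15 of 69 in IP 2 (21.7%, 12.7 to 33.3) lay in runs of 3 U, against 33.8% and 35.8% of all of them. All 319 and 417 were placed at the base of the run with the lowest genome coordinate, so which U of the 3 is missing is not given by the lists.

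The sequences with capital TTT above belong to this group. ITGA3, an integrin chain that binds laminin, had 4 of 55 tags with the deletion in IP 1. TMBIM6 had 4 of 60, TGFBI, a matrix protein induced by TGF-beta, had 4 of 57, and HSPA5, the endoplasmic reticulum chaperone BiP, had 5 of 32, all in IP 2. In each of these 4 genes most tags were unmutated, whereas FRAT1 had 7 of 7 in IP 2 and NINJ1 had 4 of 4 in IP 1, with few tags in all.

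Substitutions and insertions had sequence features of their own. Of mapped 3′ UTR substitutions, 12.6% in IP 1 and 13.2% in IP 2 lay in a CG dinucleotide, against 2.38% of 3′ UTR bases. Those in CG recurred at 14.9% (interval 11.2 to 19.3) and 12.6% (9.44 to 16.4), and the others at 8.34% (7.23 to 9.56) and 7.44% (6.44 to 8.54), with no overlap of intervals in either list. Insertions lay within 1 base of a run of 5 or more in 67.2% and 68.1% of cases, against 6.29% of bases. Deletions did so in 18.1% and 18.7%, and substitutions in 5.50% and 4.68%.

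The 29-base windows around substitutions were poorer in A and T than 3′ UTRs in general. The mean was 49.6% in IP 1 and 50.6% in IP 2, and 45.2% for recurring substitutions in both, against 57.4% over 1163149 windows tiled along the longest 3′ UTR of every protein-coding gene. Deletions had 58.8% and 59.4% and insertions 63.6% and 64.9%. The AU-rich core ATTTA was in 3.33% and 3.94% of site windows and 5.25% of tiled windows, the polyadenylation signal AATAAA in 1.55% and 1.49% against 2.56%, and the PUF motif TGTANATA in 0.357% and 0.305% against 0.485%. Each motif was searched on the transcript strand only, and with all mutation types pooled none of the 3 was more frequent at sites than in the tiled windows. Among subsets, AATAAA was in 4.10% and 2.73% of insertion windows, above 2.56%. TGTANATA was in 1.03% of insertion windows in IP 1 and in 0.627% and 0.625% of windows at the 319 and 320 recurring sites, above 0.485%, and these subsets hold few windows. A match is a match of letters and not a binding site.

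Sites were spread along the whole 3′ UTR and were sparse at its end. A place could be found for 5045 sites of IP 1 and 5909 of IP 2 in an annotated 3′ UTR of their gene, and not for 17 and 28. The median position was 45.4% and 45.0% of the way from the stop codon. The first 10% of the length held 11.7% and 11.5% of sites and the last 10% held 6.56% and 6.35%. Along the union of each gene's annotated 3′ UTRs the first 10% held 9.27% and 9.30% and the last 10% held 6.76% and 6.43%. By mutation type, on the longest 3′ UTRs, the first 10% held 13.5% and 12.8% of deletions and 9.75% and 10.5% of substitutions. For insertions it held 14.6% and 9.79%. The higher share near the stop codon therefore depends on the transcript chosen and differed between mutation types. The low share at the end does not depend on the transcript chosen. The last 100 bases held 3.29% and 3.25%, where even spacing would put 5.26% and 5.37%, and the first 100 bases held 5.63% and 6.26%. Positions are along the longest annotated 3′ UTR that holds the site, so sites of 1 gene can lie on different transcripts. The ends in use in these cells were not measured.

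At single sites the depth was low, above that of introns and below that of coding sequence. The median was 2 tags and 2 mutated tags in both lists, and the highest values were 79 and 60 tags and 13 mutated tags in each. Sites with 10 or more tags made up 7.37% (interval 6.66 to 8.12) and 7.65% (6.98 to 8.35) of 3′ UTR sites, against 1.06% and 0.984% of all sites, 0.769% and 0.893% in introns, and 10.1% and 10.1% in coding sequence. Deletions were deepest, with 10 or more tags at 12.7% and 12.5% of them, against 2.94% and 3.14% of substitutions. Sites with 2 tags, both mutated, made up 54.0% and 51.9%. All tags were mutated at 90.0% and 89.2% of substitutions but at 33.8% of deletions in each list. All 1904 and 2101 substitutions with 2 mutated tags had exactly 2 tags, so none with 2 mutated among more tags is listed. Of the 1981 and 2436 deletions with 2 mutated tags, 675 and 819 had exactly 2 tags. These contrasts between substitutions and deletions therefore depend on which sites the lists hold. The tags over all 3′ UTR sites summed to 20505 and 24627, a sum in which a tag over several sites counts at each.

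Sites were thinly spread over genes. They fell in 2855 genes in IP 1 and 3193 in IP 2, of which 1400 had a site in both (49.0% and 43.8%) and 4648 in either. In IP 1 1683 genes (58.9%) and in IP 2 1790 (56.1%) had a single site, and 125 and 158 had 5 or more. Of the 1400 genes in both lists, 1134 shared no base. Against 19154 protein-coding genes with an annotated 3′ UTR, 1393 (7.27%) had a site in each IP and 264 (1.38%) had a recurring base. Across all 19154 genes, zeros included, the site numbers of the 2 lists had a rank correlation (Spearman) of 0.381, and sites per kb of 3′ UTR one of 0.345, as a description over genes that share the same libraries. Over the 4614 of these genes with a site in either list, a set that leaves out every gene at 0 in both, the rank correlation of site numbers was -0.233.

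The length of the 3′ UTR went with the number of genes listed. Among the 10% of genes with the shortest 3′ UTRs (median 107 bases) 0.0522% had a site in both IPs, and among the 10% with the longest (median 5622 bases) 29.2% (interval 27.1 to 31.3) did. Sites per kb of 3′ UTR varied less, from 0.0585 to 0.145 in IP 1 and from 0.0897 to 0.166 in IP 2. The median longest 3′ UTR was 1104 bases over all genes and 3509 bases in genes with a site in both IPs. By chromosome, sites per kb were highest on chromosome 20 in both lists, at 0.223 and 0.216, against 0.134 and 0.157 over all genes.

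**Figure D5:**
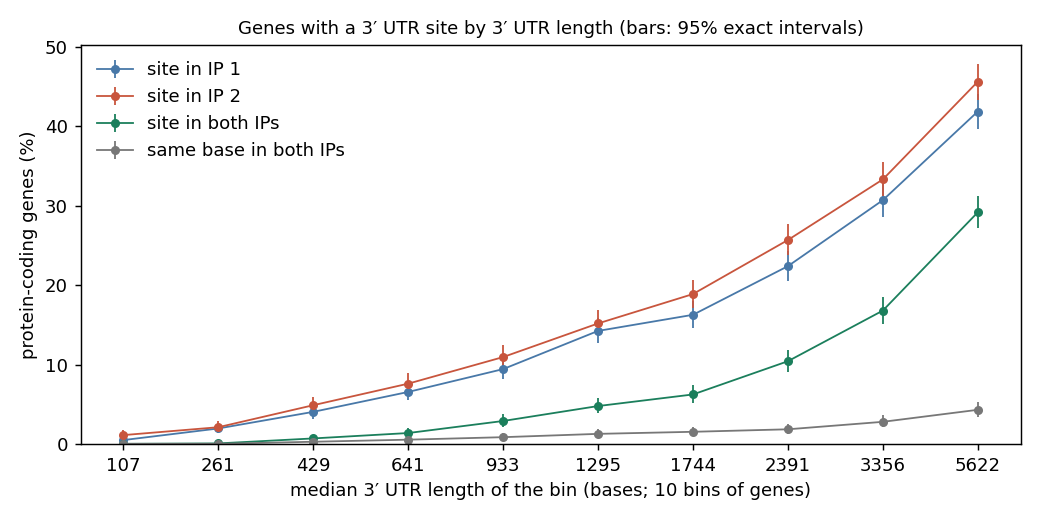
Share (%) of protein-coding genes with a 3′ UTR site in IP 1, in IP 2, in both, and at the same base in both, in 10 bins of genes by the length of the longest annotated 3′ UTR (median of each bin in bases on the x axis), with 95% exact intervals. The share with a site in both rises from 0.0522% to 29.2%.

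The genes with the most 3′ UTR sites in both lists shared from 0 to 3 bases each. Over all 3′ UTR sites 6.36% of IP 1 and 5.44% of IP 2 recurred. ZNF26, a zinc finger gene, had 7 sites in IP 1 and 11 in IP 2, with 1 recurring base, at which 2 of 2 and 2 of 4 tags carried a deletion. The succinate dehydrogenase subunit gene SDHC had 6 and 9, with 1 recurring insertion at 2 of 4 and 2 of 5 tags. SDHC has processed pseudogenes, so its tags are uncertain. METTL22 had 6 and 9 sites, CLSTN2 6 and 8, H6PD 6 and 8, UBXN7 8 and 6, GJC1 7 and 6, GPATCH2L 6 and 7 and PEX26, a peroxisome biogenesis gene, 6 and 7. In H6PD, UBXN7 and GPATCH2L no base was shared, and in PEX26 1 was. METTL22 and GJC1 had 2 recurring bases each and CLSTN2 had 3.

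The strongest sites of genes listed in 1 IP alone had as many mutated tags as the strongest recurring sites. In IP 1, DOCK1, an activator of Rac, had 12 of 12 tags with a substitution 9 bases after the stop codon. RNF4, a SUMO-targeted ubiquitin ligase, had 11 of 12 with a deletion. PAICS, an enzyme of purine synthesis, had 11 of 11 with a substitution and 5 further sites. In IP 2, UBE2V1, a ubiquitin-conjugating enzyme variant, had 11 of 14, the amino acid transporter gene SLC1A4 had 10 of 12, and CDCP1, a membrane glycoprotein, had 10 of 10, all substitutions. These 6 genes were picked for having no 3′ UTR site in the other IP, so their absence there is not a result. Of all 3′ UTR substitutions with 4 or more mutated tags, 19.6% in IP 1 and 16.6% in IP 2 recurred.

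Factors that act on 3′ UTRs had 3′ UTR sites themselves in 7 of 44 genes in both IPs (15.9%, interval 6.64 to 30.1), beside 7.27% of all protein-coding genes. This list has a median longest 3′ UTR of 3524 bases against 1104. Weighting all genes by the 3′ UTR length bins of the list's members gives a share of all genes, called the length-weighted share below, and here it was 17.0%, above the list's own. AGO2, the slicing Argonaute, had 7 sites in each list and 1 recurring deleted base with 6 of 7 tags in IP 1 and 3 of 3 in IP 2. AGO3 had 4 and 5 sites, the RNA-binding protein QKI 3 and 3, and DCP2, the decapping enzyme, 2 and 5, with no shared base. The deadenylase scaffold CNOT1 and its partner CNOT2 had none. Of 20 cleavage and polyadenylation factors 2 had a site in both IPs (10%, interval 1.23 to 31.7), beside 7.27% of all genes and a length-weighted 10.7%. They were WDR33, which reads the poly(A) signal, with 2 and 5 sites, and CSTF1 with 2 and 1. CLP1 and CPSF1 had none.

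Transcripts known for AU-rich elements had sites in both IPs in 3 of 28 genes (10.7%, interval 2.27 to 28.2), a share whose interval holds the 7.27% of all genes and the length-weighted 5.69%. LIF, a cytokine, had 7 sites in IP 1, with 2 or 3 mutated tags each, and 1 in IP 2 with 4 of 8 tags. BCL2 had 1 and 3 sites, and the cyclins CCNA2 and CCNB1 had none. None of the 28 had a recurring base. Of 24 selenoproteins, whose 3′ UTRs carry the element that recodes UGA, 1 had a site in both (4.17%, interval 0.105 to 21.1), beside 7.27% of all genes and a length-weighted 5.77%. It was SELENON, with 3 sites in IP 1 and 1 in IP 2 with 6 of 6 tags. The deiodinases DIO1 and DIO2 had none.

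Matrix and TGF-beta genes were examined because the series is about matrix genes in tubular cells. Of 47 extracellular matrix genes, 3 (6.38%, interval 1.34 to 17.5) had a 3′ UTR site in both IPs, beside 7.27% of all genes and a length-weighted 6.40%. CCN2, a matricellular growth factor, had 2 of 8 tags with a deletion in IP 1 and 2 adjacent deleted bases with 2 of 2 tags in IP 2. COL4A1, a basement membrane collagen chain, had a substitution in 3 of 9 tags in IP 1 and a deletion in 3 of 53 in IP 2, the latter 51 bases after the stop codon. COL6A1 had 3 of 3 and 2 of 10. None of the 47 had a recurring base, where 1.38% of all genes did, and CCN1 and COL12A1 had no 3′ UTR site.

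Of 30 genes of TGF-beta signalling, 8 (26.7%, interval 12.3 to 45.9) had a site in both IPs, against 7.27% of all genes, with a median longest 3′ UTR of 2628.5 bases against 1104. The length-weighted share was 13.3%, which the interval holds. SMAD3, a transducer of the receptor signal, had 4 sites in IP 1, the deepest with 3 of 14 tags, and 3 in IP 2, the deepest with 2 of 11. SMAD2 had 1 and 5 sites, and the receptors BMPR1A 3 and 3 and ACVR1B 1 and 4, none of them at a shared base. The receptors ACVR1 and ACVR2A had none. In the whole list 1 gene had a recurring base, SMAD4, named here after its value was seen.

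Of 36 DNA damage response genes, 6 (16.7%, interval 6.37 to 32.8) had a site in both IPs, beside 7.27% of all genes and a length-weighted 8.99%, which the interval holds. A recurring base was found in 3 (8.33%, interval 1.75 to 22.5), beside 1.38% of all genes, with H2AX and MRE11 among them. MRE11, a nuclease at broken ends, had a substitution with 2 of 2 tags in IP 1 and 4 of 4 in IP 2 at its shared base, and 4 and 2 sites in all. LIG3, a DNA ligase that works with XRCC1, had 5 and 1 sites, and the kinase ATM 2 and 1, each substitution with 2 of 2 tags. APEX1 and ATR had none. The median longest 3′ UTR of this list was 1432.5 bases.

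No marker of cell identity had a 3′ UTR site in both IPs, and the lists are too short to set this apart from the 7.27% of all genes. The exact upper limits were 26.5% for 12 proximal tubule markers, 41.0% for 7 epithelial markers and 26.5% for 12 markers of other cell types, with length-weighted shares of 3.14%, 7.38% and 6.16%. Of the 12 proximal tubule markers PAX8 had a site, in IP 1 alone, and of the 7 epithelial markers CDH6 had 2, in IP 2 alone. None of the 12 markers of endothelium, leukocytes, podocytes, thick limb or collecting duct had one. With sites in any region counted, 6 of 12 proximal tubule, 6 of 7 epithelial and 3 of 12 other markers were in both lists, as were 10852 of all 19154 genes (56.7%). The lists give no expression level, so they neither show nor deny the labelled cell type. PAX8 and CDH6 were named after their values were seen.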

How the data were processed

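RNA immunoprecipitated with a Flag antibody from HK-2 cells was sequenced in paired ends, and 1 list of sites for each of 2 PARP1 IPs was analysed. The lists give, per the file headers, raw counts: k, the tags that cover a base, and m, those mutated at it. They also hold the authors' FDR of each site, a kind of q-value. Every site was 1 base long and m was at least 2, so a base is listed only where tags carry a mutation, and depth is known only there. TopHat2, bcl2fastq and GRCh38 are named per the submitters' processing notes. Versions, the program that called the sites, its settings, the assignment of tags that map to several places and whether duplicates were removed were not given in the sources used here.

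Sites were kept by the first region label of the authors. Recurrence meant the same base and strand in the other list. Chromosome, symbol, 3′ UTR and transcript sequence came from GENCODE release 29 (GRCh38, counted from 1), and 98.7% and 98.5% of the sites of IP 1 and IP 2 also lay in a GENCODE 3′ UTR. Positions were taken along the longest annotated 3′ UTR of the gene that holds the site. No genome sequence was used, so sequence context was computed for 3′ UTR and coding sites only. Of 10 gene lists, GPX1 had no match. Scripts used Python 3.11.15, pandas 2.3.3, NumPy 2.4.6, SciPy 1.17.1 and matplotlib 3.10.9, and the matching of bases, runs and intervals was checked on simulated data. No test was made, since there is 1 group of 2 IPs and no control; intervals are exact at 95%.

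The sites, lists and sets were chosen with earlier results of these data known. With values ranked by the smaller of the 2 IPs, named are the 10 genes with the most mutated tags at a recurring base, the 10 richest in recurring bases, the 10 richest in sites, the 5 deepest recurring sites, up to 4 genes with the most sites and up to 2 without in each list, and, per IP, the 3 genes highest in mutated tags among those with a 3′ UTR site in it alone. Genes of the runs of 3 U, SMAD4, PAX8 and CDH6 stand outside this rule. Not every gene that the rule takes is described, the values of 1 of them are not reported here, and no sequence from chromosome 8 is shown. Alternatives were stricter thresholds, single mutation types, the GENCODE region class, merged neighbouring sites, other overlaps and backgrounds, other windows, and each IP left out.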

Additional observations from a re-analysis of the deposited data

How the results depend on the processing

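The lists hold mutated bases from 2 IPs of 1 group, so stability over cultures, over inputs and over a control IP was not measured, and the median site has 2 tags. Shares are means of the 2 IPs unless said otherwise. Of 59 alternatives, 25 were labelled as leaving the value the same and 34 as moving it. Shares, means and medians were judged by the spread of the 2 IPs, recurrence by its interval and counts by a fold change. A value from 1 IP always lies within the spread of the 2 IPs, and merging neighbouring sites cannot change the number of genes. The 25 therefore include outcomes fixed in advance and do not measure stability. The settings on adjacent bases, on depth, mutation types, runs of U and 3′ UTR length, and the IPs left out for position and sequence, were added after seeing the data. The 3′ UTR share of sites, 2.81% as the mean of the IPs, was 5.15% at an FDR under the commonest value, 6.47% with at least 4 mutated tags, 1.93% for substitutions, 5.57% for deletions, 3.82% for insertions and 3.19% by the GENCODE class, and 2.58% to 3.04% with 1 IP left out. Recurrence, 6.36% of IP 1, was 5% with the stricter FDR, 9.35% with at least 4 mutated tags in both lists, 9.18% for substitutions, 2.53% for deletions, 7.25% on either strand, 8.71% within 50 bases and 5.44% of IP 2. The 1400 genes with a site in both IPs became 732 with the stricter FDR, 91 with at least 4 mutated tags, 739, 352 and 56 for substitutions, deletions and insertions, and 2855 to 3193 when 1 IP was left out and the other counted alone. Of 7 gene lists that are not cell markers, 5 had a share above that of all genes, 5 to 6 with 1 IP left out 3 where a recurring base was required and 4 against genes with any site in both IPs. Against all genes weighted to the same 3′ UTR lengths 3 had a higher share. The median position, 45.2%, was 48.6% along the union of annotated 3′ UTRs and 43.3% with at least 4 mutated tags (45.0% to 45.4% with 1 IP left out). The mean A and T content, 55.0%, was 53.5% in windows with 50 bases on each side and 48.8% at recurring sites (54.5% to 55.5%). The share with 10 or more tags, 7.51%, was 15.3% with at least 4 mutated tags, 3.04% for substitutions, 12.6% for deletions and 8.40% for insertions (7.37% to 7.65%). The share of deletions, 42.5%, was 10.7% with at least 4 mutated tags and 33.9% with adjacent bases merged (41.3% to 43.8%). No paired analysis was possible because the inputs were not analysed here and the result comes from no test.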
